A study of Mus musculus with 6 samples.

Results

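Interferon-stimulated genes (ISGs) are the genes that cells switch on when interferons bind their receptors, and 43 of them were described here in cells washed from the mouse lung. They were chosen by symbol, as a list of type I and type II interferon response genes, and all 43 were found among the 40564 genes of the deposited tables. The list was split into 32 antiviral members, the families Ifit, Oas and Mx with other effectors, sensors and regulators, and 11 members of the interferon-gamma type, which are guanylate-binding proteins, immunity-related GTPases, Irf1 and the chemokines Cxcl9 and Cxcl10. All 43 passed the filter on low counts, which kept 16765 genes. RNA of bronchoalveolar lavage fluid (BALF) cells, immune cells taken from the airspaces, was sequenced in bulk in 6 libraries of 3 genotypes. Cis Stat6 KO is labelled a double knockout, without CIS and without STAT6. Cis KO lacks CIS, the protein of Cish, an inhibitor of cytokine receptor signalling that contains an SH2 domain. Cis WT carries neither deletion. Each genotype had 2 replicates, none was treated, and all 6 samples carry the same date. The strain, age and sex of the mice, the way the alleles were made and whether a deletion was limited to some cells are not given in the labels. Neither is it said that replicates came from separate animals, so p-values measure only the spread between these samples.

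Type I and type III interferons signal through JAK1 and TYK2 to a complex that contains STAT2 and IRF9 and binds the interferon-stimulated response element (ISRE) in front of antiviral genes. Interferon gamma signals through JAK1 and JAK2 and acts on the GAS element in front of genes such as Irf1, and IRF1 then acts on ISRE-like sequences of Gbp and Irgm genes. STAT6 carries the signals of interleukin 4 and interleukin 13 and binds a related palindrome with a longer spacer. In the airspaces, alveolar macrophages keep low basal levels of ISGs and raise them during infection.

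The libraries held 50762354 to 65937118 counts, and normalised read counts are given as CPM, scaled by edgeR's TMM factors. Cish had 1.72 and 5.04 CPM in Cis Stat6 KO libraries and 4.34 and 3.52 CPM in Cis KO libraries, against 46.2 and 56.2 CPM in Cis WT libraries. Stat6 had 31.6 and 25.5 CPM in Cis Stat6 KO libraries, against 264 and 221 CPM in Cis KO libraries and 233 and 227 CPM in Cis WT libraries. Alveolar macrophage markers, 10 of 10 detected, summed to 28943 and 38360 CPM in Cis Stat6 KO libraries, 17551 and 13550 CPM in Cis KO libraries and 13750 and 21048 CPM in Cis WT libraries. The sums were thus highest in both Cis Stat6 KO libraries, where the single gene Chil3 held 22278 and 31128 CPM of them. Over the 10 genes the median log2 fold change of Cis Stat6 KO was -0.006 against Cis KO and 0.25 against Cis WT. The part of these markers in the ISG values was not tested. Cis KO replicate 2 stood apart. Haemoglobin genes took 3.29% of its counts, against at most 0.0366% elsewhere, and 15855 genes were detected in it, against 19641 to 20431 in the others. The single gene CT010467 took 9.77% of the counts of Cis KO replicate 2 and 7.87% of those of Cis Stat6 KO replicate 2. Elsewhere it took 1.38% to 5.44%. In Cis KO replicate 2, B cell markers summed to 50.5 CPM and neutrophil markers to 383 CPM. Results that rest on the Cis KO group are therefore also given without each of its libraries.

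The promoters of 6 members are printed, chosen among the 19 of 33 members whose promoter held the ISRE core. These genes set out the patterns described below. Gbp3, Cxcl10, Ifit3 and Irgm1 were lower in both Cis KO libraries than in both Cis WT libraries, whereas Isg15 and Rsad2 were over 2 times higher in Cis KO replicate 2 than in replicate 1. The sequences are from RefSeq on GRCm38.p6 and run from 250 bases before the transcription start to 50 bases after it. Capitals mark the ISRE core GAAANNGAAA on either strand, where overlapping matches run together.
Gbp3: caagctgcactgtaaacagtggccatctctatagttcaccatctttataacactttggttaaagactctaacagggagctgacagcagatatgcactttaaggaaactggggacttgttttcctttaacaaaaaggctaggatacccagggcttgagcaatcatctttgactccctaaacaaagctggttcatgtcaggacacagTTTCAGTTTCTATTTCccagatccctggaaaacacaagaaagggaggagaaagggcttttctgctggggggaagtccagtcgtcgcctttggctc
Cxcl10: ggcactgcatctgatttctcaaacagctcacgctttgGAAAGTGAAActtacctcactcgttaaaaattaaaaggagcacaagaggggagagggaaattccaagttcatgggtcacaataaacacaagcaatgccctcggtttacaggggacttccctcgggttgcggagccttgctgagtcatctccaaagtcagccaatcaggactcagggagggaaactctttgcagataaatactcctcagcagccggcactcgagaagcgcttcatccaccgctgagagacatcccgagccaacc
Ifit3: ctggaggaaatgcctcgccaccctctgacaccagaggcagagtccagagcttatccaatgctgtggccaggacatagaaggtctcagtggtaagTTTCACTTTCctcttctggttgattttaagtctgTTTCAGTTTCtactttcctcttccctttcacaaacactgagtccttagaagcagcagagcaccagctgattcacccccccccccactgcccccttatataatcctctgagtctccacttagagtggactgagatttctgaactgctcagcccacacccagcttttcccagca
Irgm1: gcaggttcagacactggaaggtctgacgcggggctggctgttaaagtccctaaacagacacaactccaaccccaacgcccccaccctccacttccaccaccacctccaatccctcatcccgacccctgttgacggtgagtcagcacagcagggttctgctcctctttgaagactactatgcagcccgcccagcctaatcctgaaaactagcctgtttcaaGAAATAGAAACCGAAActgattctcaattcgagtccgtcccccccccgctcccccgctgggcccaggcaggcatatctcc
Isg15: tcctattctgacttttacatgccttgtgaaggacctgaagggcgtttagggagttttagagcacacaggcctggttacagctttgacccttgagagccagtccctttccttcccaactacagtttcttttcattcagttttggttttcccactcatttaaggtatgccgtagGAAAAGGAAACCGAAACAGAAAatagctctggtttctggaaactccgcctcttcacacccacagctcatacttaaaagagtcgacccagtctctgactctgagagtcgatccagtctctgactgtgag
Rsad2: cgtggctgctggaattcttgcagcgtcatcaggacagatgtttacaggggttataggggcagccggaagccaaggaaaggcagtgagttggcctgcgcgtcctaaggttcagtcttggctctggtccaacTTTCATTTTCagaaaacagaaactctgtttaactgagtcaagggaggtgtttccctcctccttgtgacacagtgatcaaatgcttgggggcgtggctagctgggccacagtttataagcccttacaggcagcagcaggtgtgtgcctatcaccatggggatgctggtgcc

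The windows lie at chr3:142559794-142560093 on the plus strand for Gbp3, chr5:92348840-92349139 on the minus strand for Cxcl10 and chr19:34583279-34583578 on the plus strand for Ifit3. Those of Irgm1, Isg15 and Rsad2 lie on the minus strand, at chr11:48871371-48871670, chr4:156200769-156201068 and chr12:26456403-26456702. Counted from the transcription start as 0, the core nearest to it began at -39 in Gbp3 and at -24 in Irgm1, and 3 overlapping cores of Isg15 began at -78, -72 and -66. In Ifit3 the cores began at -156 and -122, in Rsad2 at -120 and in Cxcl10 at -213. A promoter of the same length was found for 33 members, of which 19 (57.6%) held the ISRE core, against 3.99% of 27025 genes. It was found in 12 of 23 antiviral members (52.2%) and 7 of 10 members of the interferon-gamma type. Cmpk2 and Ifit2, also lower in both Cis KO libraries than in both Cis WT libraries, held no ISRE core in this window. The GAS letters TTCNNNGAA were in 10 of 33 members (30.3%), against 9.55% of genes, and the STAT6-type letters TTCNNNNGAA were in 4 of 33 (12.1%), against 8.01% of genes. The 4 were Oas1a, Irf9 and, each at a second start only, Ifit2 and Gbp3. A member with several starts was counted if any of its windows held the letters. Both palindromes read the same on either strand, and all matches are descriptions of letters, not of sites in use.

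On the scale of the FPKM values deposited by the authors, which divide counts by gene length and library total and so allow genes to be compared, most ISGs were low. In Cis Stat6 KO libraries 38 and 34 members reached 1 FPKM, in Cis KO libraries 29 and 32, and in Cis WT libraries 37 and 35. Samhd1, which breaks down nucleotides needed by viruses, had 32.1 ± 10.7 FPKM in Cis Stat6 KO, 37.0 ± 10.4 FPKM in Cis KO and 42.0 ± 2.21 FPKM in Cis WT (SD, n = 2 each). Bst2, the membrane protein tetherin that holds back budding virus, had 37.3 ± 0.622 FPKM in Cis Stat6 KO, 30.5 ± 6.88 FPKM in Cis KO and 31.4 ± 0.566 FPKM in Cis WT (SD, n = 2 each). These and Ifi35 were among the 4 highest members in each group. Samhd1 lay above Bst2 in both Cis WT libraries, while their values overlapped in Cis Stat6 KO and in Cis KO. At the low end, Iigp1 averaged 0.35 ± 0.226 FPKM in Cis Stat6 KO, 0.06 ± 0.0849 FPKM in Cis KO and 0.16 ± 0.198 FPKM in Cis WT (SD, n = 2 each), with both Cis Stat6 KO libraries above both Cis KO libraries.

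**Figure D1:**
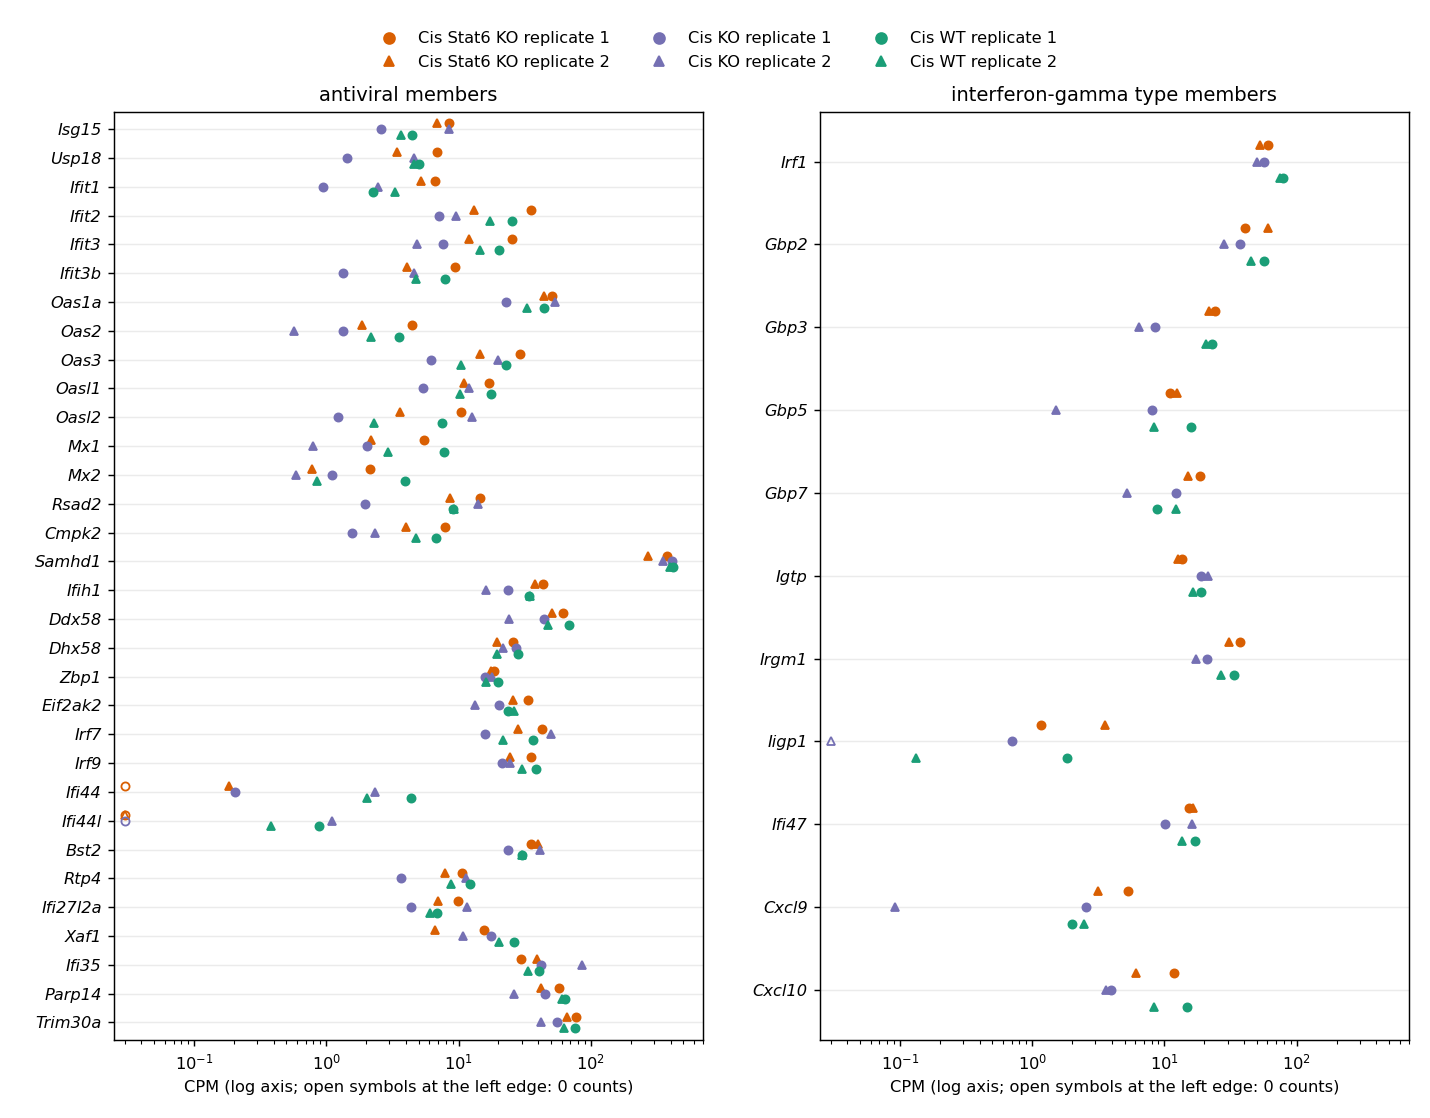
Level of each of the 43 genes in each library, in TMM-scaled CPM on a log axis, with antiviral members on the left and members of the interferon-gamma type on the right. Circles are replicate 1 and triangles replicate 2. Open symbols at the left edge are 0 counts. Gbp3 shows the Cis KO libraries at 8.50 and 6.39 CPM, apart from the other 4, whereas Rsad2 and Oasl2 show them far from each other.

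Loss of CIS was compared with Cis WT first. Lower values prevailed among the ISGs in Cis KO libraries, Gbp3, Ifit3, Cmpk2 and Cxcl10 among them, but edgeR's quasi-likelihood test called 0 of 43 after Benjamini-Hochberg adjustment over all genes. The log2 fold change was below 0 for 35 of 43 members, against 53.1% of all genes tested. Its median was -0.58 over antiviral members and -0.67 over members of the interferon-gamma type, against -0.05 over all tested genes. Both Cis KO libraries lay below both Cis WT libraries for 19 members, 13 of 32 antiviral and 6 of 11 of the gamma type, against 25.9% of genes. Only Ifi35 lay above in both, against 21.4% of genes.

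The background of edgeR calls in that comparison was 0.274% of genes. At an unadjusted p under 0.05, edgeR had 10 of 43 members lower, 6 antiviral and 4 of the gamma type, against 5.59% of genes, and 0 of 43 higher, against 5.51%. DESeq2 called 2 members lower, Cxcl10 and Gbp3, against 1.97% of genes, and 0 higher, against 1.43%. With limma's voom and library quality weights 0 members were called, against 0.227% of genes. Without Cis KO replicate 1, edgeR called 15 members lower and 2 higher, against 17.4% and 11.3% of genes, where the Cis KO library that is left is assumed to vary like the other groups. Without Cis KO replicate 2 it called Gbp3 alone, against 0.623% of genes lower. The antiviral median was -0.23 without replicate 1 and -0.98 without replicate 2, and the gamma-type median -1.03 and -0.48. Over all tested genes the median was -0.24 and -0.03 in these settings.

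Loss of STAT6 on top of CIS was compared with Cis KO, and the values mostly lay the other way. Both comparisons use the same Cis KO libraries, so their values are given side by side and neither supports the other. In Cis Stat6 KO against Cis KO, edgeR called 0 of 43 members, with 0.358% of genes called. The log2 fold change was below 0 for 7 of 43, against 46.8% of genes, and its median was 0.51 over antiviral members and 0.94 over gamma-type members, against 0.05 over all genes. Both Cis Stat6 KO libraries lay above both Cis KO libraries for 18 members, 10 of 32 antiviral and 8 of 11 of the gamma type, against 27.9% of genes. Ifi35, Ifi44 and Igtp lay below in both, against 22.5% of genes.

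At an unadjusted p under 0.05, edgeR had 11 of 43 members higher in Cis Stat6 KO, 8 antiviral and 3 of the gamma type, against 9.29% of genes. Ifi35 and Igtp were the 2 lower, against 8.99% of genes. DESeq2 called 7 of the 42 members with an adjusted p higher, against 6.15% of genes, and these were Cmpk2, Gbp3, Ifih1, Ifit1, Ifit2, Ifit3 and Irgm1. It called 0 lower, against 6.16%, and voom with quality weights called 0, against 0.137%. Without Cis KO replicate 1, edgeR called 14 members higher and 4 lower, against 19.2% and 13% of genes. Without Cis KO replicate 2 it called Gbp3, Ifit1 and Rsad2 higher, against 1.87% of genes. The antiviral median was 0.16 without replicate 1 and 0.92 without replicate 2, and the gamma-type median 1.33 and 0.64. Over all tested genes the median was 0.22 and 0.03 in these settings. The antiviral median was 0.20 without Cis Stat6 KO replicate 1.

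**Figure D2:**
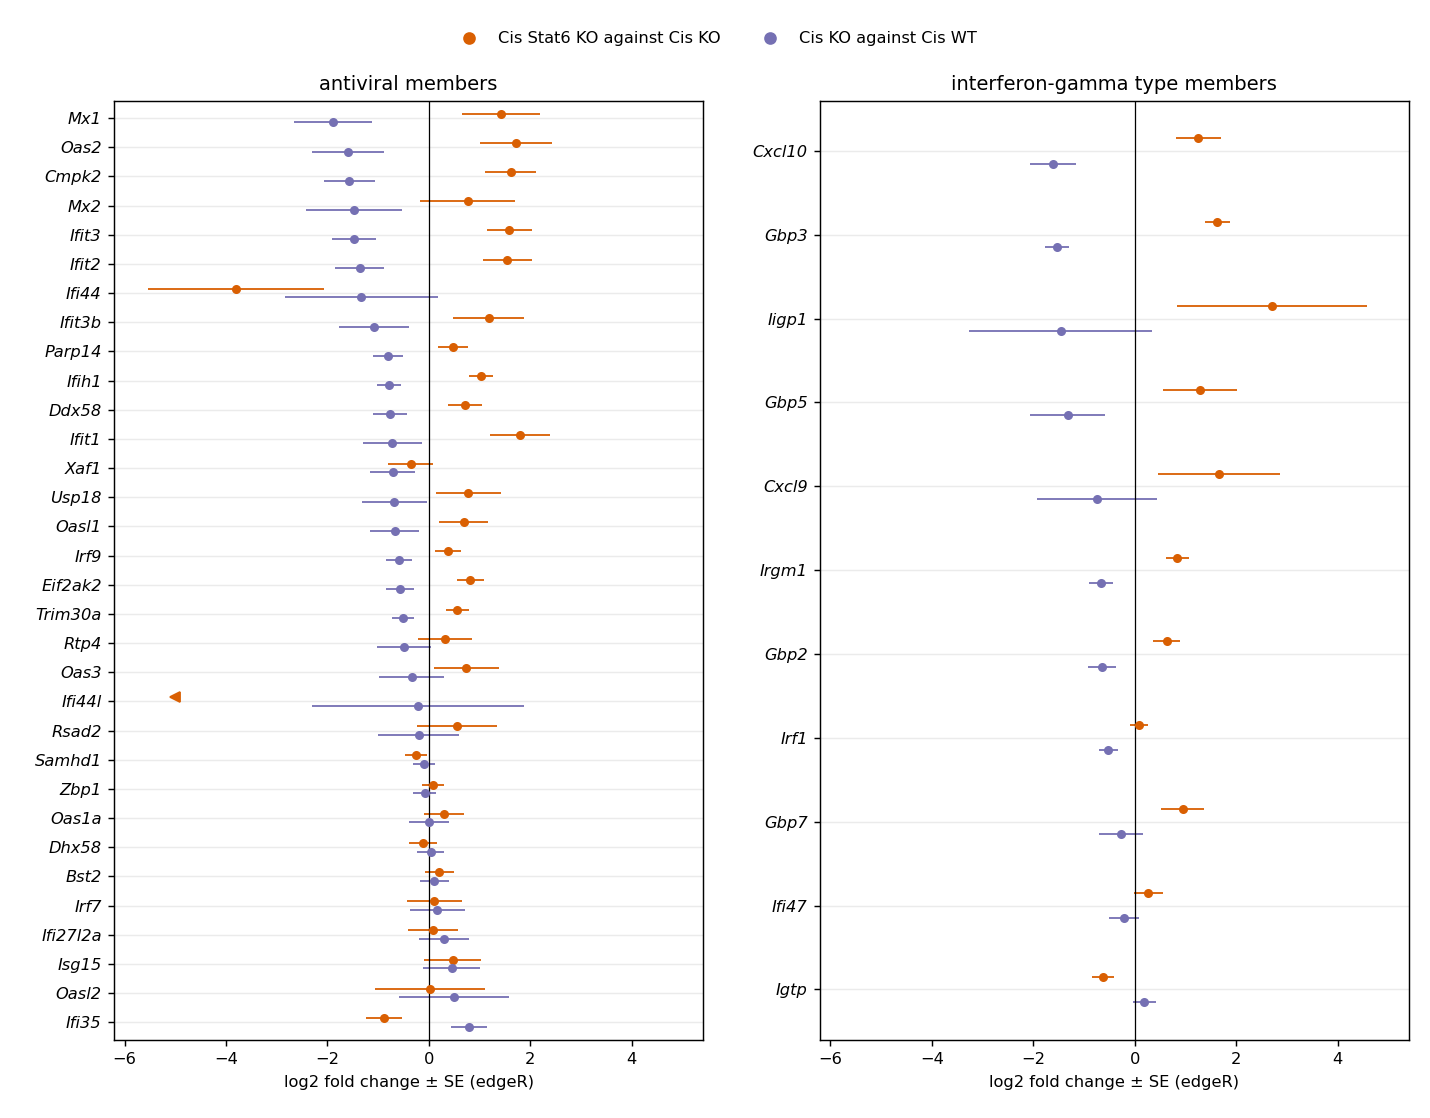
Fitted log2 fold change with its standard error for each gene in Cis Stat6 KO against Cis KO (orange) and Cis KO against Cis WT (purple), sorted within each class by the second. Cis KO libraries enter both. The arrowhead for Ifi44l stands for 0 counts in both Cis Stat6 KO libraries and marks no value. Gbp3 has -1.53 ± 0.24 against Cis WT and 1.63 ± 0.24 for Cis Stat6 KO against Cis KO.

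Among antiviral effectors, the IFIT proteins bind viral RNA that lacks the host's cap methylation. Ifit3 had 25.5 and 12.01 CPM in Cis Stat6 KO libraries, 7.61 and 4.84 CPM in Cis KO libraries and 20.2 and 14.4 CPM in Cis WT libraries. Both Cis KO values lay under the other 4. The log2 fold change was -1.47 ± 0.44 in Cis KO against Cis WT (edgeR, adjusted p = 0.404) and 1.59 ± 0.44 in Cis Stat6 KO against Cis KO (edgeR, adjusted p = 0.184). Ifit2 had 35.3 and 13.1 CPM in Cis Stat6 KO libraries, 7.08 and 9.50 CPM in Cis KO libraries and 25.5 and 17.2 CPM in Cis WT libraries. Again the Cis KO libraries were the 2 lowest, with a log2 fold change of 1.55 ± 0.49 in Cis Stat6 KO against Cis KO (edgeR, adjusted p = 0.213). Without Cis Stat6 KO replicate 1 the log2 fold change against Cis KO was 0.65 for Ifit2 and 0.94 for Ifit3. Ifit1 was at 6.67 and 5.20 CPM in Cis Stat6 KO libraries, 0.938 and 2.47 CPM in Cis KO libraries and 2.26 and 3.32 CPM in Cis WT libraries, so Cis KO and Cis WT overlapped. Ifit3b, a near copy of Ifit3, had 9.41 and 4.05 CPM in Cis Stat6 KO libraries, 1.34 and 4.61 CPM in Cis KO libraries and 7.83 and 4.73 CPM in Cis WT libraries. Of the 50-base words of Ifit3 transcripts 51.2% also occur in other genes, mainly Ifit3b, so how counts divide between the pair is uncertain. The median log2 fold change of the 4 IFIT genes was -1.22 in Cis KO against Cis WT and 1.57 in Cis Stat6 KO against Cis KO.

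Oligoadenylate synthetases sense double-stranded RNA and activate RNase L, and the MX proteins are GTPases that block viral nucleocapsids. Oas2 had 4.45 and 1.85 CPM in Cis Stat6 KO libraries, 1.33 and 0.571 CPM in Cis KO libraries and 3.54 and 2.19 CPM in Cis WT libraries, the Cis KO libraries being the 2 lowest. Oas3 had 29.2 and 14.6 CPM in Cis Stat6 KO libraries, 6.24 and 20.0 CPM in Cis KO libraries and 22.7 and 10.3 CPM in Cis WT libraries. Here the groups overlapped, since only Cis KO replicate 1 was low. Oas1a, Oasl1 and Oasl2 likewise had their lowest value in Cis KO replicate 1 and a value within or above the other groups in replicate 2, and 57.6% of the 50-base words of Oas1a are shared with other genes, Oas1g and Oas1b among them. Mx1 had 5.50 and 2.16 CPM in Cis Stat6 KO libraries, 2.05 and 0.799 CPM in Cis KO libraries and 7.69 and 2.92 CPM in Cis WT libraries. Mx2 stayed at or under 3.93 CPM in every library. The replicates of Mx1 differed by more than 2 times in each group, which left its log2 fold change at -1.89 ± 0.77 in Cis KO against Cis WT.

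Enzymes that act on nucleotides were divided. Cmpk2, a mitochondrial nucleotide kinase, had 7.89 and 3.99 CPM in Cis Stat6 KO libraries, 1.56 and 2.33 CPM in Cis KO libraries and 6.73 and 4.79 CPM in Cis WT libraries. Both Cis KO values were below the rest, with a log2 fold change of -1.57 ± 0.50 against Cis WT (edgeR, adjusted p = 0.417) and 1.61 ± 0.50 for Cis Stat6 KO against Cis KO (edgeR, adjusted p = 0.211), or 1.03 without Cis Stat6 KO replicate 1. Rsad2, its neighbour on chromosome 12 that codes for viperin, an enzyme making a chain-terminating nucleotide, had 14.6 and 8.68 CPM in Cis Stat6 KO libraries, 1.95 and 13.9 CPM in Cis KO libraries and 9.01 and 9.18 CPM in Cis WT libraries. The Cis KO replicates of Rsad2 thus lay on both sides of Cis WT. Samhd1 spanned 268 to 421 CPM over all 6 libraries.

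The sensors showed a smaller range. Ifih1, which codes for the RNA sensor MDA5, had 43.2 and 37.6 CPM in Cis Stat6 KO libraries, 23.5 and 16.2 CPM in Cis KO libraries and 33.8 and 34.7 CPM in Cis WT libraries. Its 3 groups did not overlap, with a log2 fold change of -0.79 ± 0.24 in Cis KO against Cis WT (edgeR, adjusted p = 0.406) and 1.03 ± 0.24 in Cis Stat6 KO against Cis KO (edgeR, adjusted p = 0.145). Ddx58, the sensor RIG-I, had 61.8 and 51.0 CPM in Cis Stat6 KO libraries, 44.3 and 24.2 CPM in Cis KO libraries and 68.2 and 47.8 CPM in Cis WT libraries. Eif2ak2, the RNA-activated kinase PKR, had 33.4 and 26.0 CPM in Cis Stat6 KO libraries, 20.2 and 13.4 CPM in Cis KO libraries and 23.5 and 26.3 CPM in Cis WT libraries. For both, the Cis KO libraries were again the 2 lowest. Dhx58 (LGP2) and Zbp1, a sensor of Z-form nucleic acid, were level, at 19.6 to 28.1 CPM and 15.9 to 19.8 CPM over all libraries.

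Isg15, a ubiquitin-like protein attached to other proteins, had 8.41 and 6.91 CPM in Cis Stat6 KO libraries, 2.58 and 8.52 CPM in Cis KO libraries and 4.42 and 3.68 CPM in Cis WT libraries. Both Cis Stat6 KO values were above both Cis WT values, and the Cis KO values fell on either side of Cis WT. Usp18, which removes ISG15 and damps interferon receptor signalling, was lowest in Cis KO replicate 1 at 1.42 CPM and lay between 3.43 and 6.82 CPM in the other libraries. Of the members, Ifi35 alone was higher in both Cis KO libraries than in both Cis WT libraries. It had 29.8 and 39.3 CPM in Cis Stat6 KO libraries and 41.9 and 85.4 CPM in Cis KO libraries. Cis WT libraries had 40.3 and 33.6 CPM. The higher Ifi35 value in Cis KO came mostly from replicate 2. Parp14, an ADP-ribosyltransferase, had 57.0 and 41.7 CPM in Cis Stat6 KO libraries, 44.8 and 26.4 CPM in Cis KO libraries and 63.3 and 60.9 CPM in Cis WT libraries. Trim30a had 77.4 and 66.5 CPM in Cis Stat6 KO libraries, 55.1 and 42.2 CPM in Cis KO libraries and 76.3 and 62.9 CPM in Cis WT libraries. Both were lower in each Cis KO library than in either Cis WT library, and Trim30a was also lower there than in Cis Stat6 KO. Bst2, Rtp4 and Ifi27l2a overlapped between Cis KO and Cis WT.

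Among the members of the interferon-gamma type, the GBP proteins are GTPases that attack the membranes of intracellular pathogens. Gbp3 had 24.2 and 21.8 CPM in Cis Stat6 KO libraries, 8.50 and 6.39 CPM in Cis KO libraries and 22.8 and 20.4 CPM in Cis WT libraries. The means were 23.0 ± 1.69 CPM in Cis Stat6 KO, 7.45 ± 1.49 CPM in Cis KO and 21.6 ± 1.66 CPM in Cis WT (SD, n = 2 each), so the gap to Cis KO was many times the spread. Cis Stat6 KO differed from Cis WT by a log2 fold change of 0.09 ± 0.24. The log2 fold change was -1.53 ± 0.24 in Cis KO against Cis WT (edgeR, adjusted p = 0.0939) and 1.63 ± 0.24 in Cis Stat6 KO against Cis KO (edgeR, adjusted p = 0.0672), the smallest adjusted p-values of the list. Gbp2 had 40.8 and 60.1 CPM in Cis Stat6 KO libraries, 37.1 and 28.2 CPM in Cis KO libraries and 57.0 and 45.2 CPM in Cis WT libraries. Gbp5 had 11.1 and 12.5 CPM in Cis Stat6 KO libraries, 8.11 and 1.51 CPM in Cis KO libraries and 15.9 and 8.29 CPM in Cis WT libraries. For both, the Cis KO libraries were the 2 lowest, though for Gbp5 they differed over 2 times between themselves. Gbp7 had 18.5 and 15.2 CPM in Cis Stat6 KO libraries, 12.3 and 5.23 CPM in Cis KO libraries and 8.83 and 12.3 CPM in Cis WT libraries, and 12.7% of its 50-base words are shared with other genes. The median of the 4 GBP genes was -0.99 in Cis KO against Cis WT and 1.12 in Cis Stat6 KO against Cis KO.

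Immunity-related GTPases act on the vacuoles that hold pathogens. Irgm1, a regulator of the others, had 37.6 and 30.9 CPM in Cis Stat6 KO libraries, 20.8 and 17.4 CPM in Cis KO libraries and 33.7 and 26.9 CPM in Cis WT libraries. The Cis KO libraries were the 2 lowest, with a log2 fold change of -0.67 ± 0.23 against Cis WT (edgeR, adjusted p = 0.431) and 0.84 ± 0.23 for Cis Stat6 KO against Cis KO (edgeR, adjusted p = 0.182). Igtp (Irgm3) differed, at 13.6 and 12.5 CPM in Cis Stat6 KO libraries, 18.8 and 21.5 CPM in Cis KO libraries and 19.0 and 16.3 CPM in Cis WT libraries, with the Cis Stat6 KO libraries the 2 lowest. Of its 50-base words 11.8% are shared with other genes, Irgm2 among them. Ifi47 overlapped between all groups, at 10.1 to 16.9 CPM, and Iigp1 was scarce, at 0 to 3.54 CPM.

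The chemokines CXCL9 and CXCL10 draw T cells through the receptor CXCR3. Cxcl10 had 11.9 and 6.07 CPM in Cis Stat6 KO libraries, 3.91 and 3.61 CPM in Cis KO libraries and 14.7 and 8.33 CPM in Cis WT libraries. Its Cis KO libraries were close together and below the other 4, with a log2 fold change of -1.62 ± 0.45 against Cis WT (edgeR, adjusted p = 0.373). An exon of Cxcl10 overlaps Art3 on the opposite strand, and strandedness is not given, so its counts may include reads of Art3. Cxcl9 had 5.29 and 3.17 CPM in Cis Stat6 KO libraries, 2.56 and 0.0913 CPM in Cis KO libraries and 1.98 and 2.48 CPM in Cis WT libraries. Only Cis KO replicate 2 was low in Cxcl9.

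The transcription factors of the list had no common pattern. Irf1 had 60.4 and 52.8 CPM in Cis Stat6 KO libraries and 56.8 and 50.3 CPM in Cis KO libraries, against 78.8 and 74.6 CPM in Cis WT libraries. All 4 mutant values lay under both Cis WT values, with a log2 fold change of -0.52 ± 0.18 in Cis KO against Cis WT. Irf7, the main driver of further type I interferon, had 43.0 and 27.9 CPM in Cis Stat6 KO libraries, 16.0 and 49.7 CPM in Cis KO libraries and 36.5 and 21.8 CPM in Cis WT libraries, so its highest and lowest values were both in Cis KO. Irf9, the DNA-binding part of the ISRE complex, had 35.4 and 24.5 CPM in Cis Stat6 KO libraries, 21.2 and 24.6 CPM in Cis KO libraries and 38.3 and 30.4 CPM in Cis WT libraries.

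Cis Stat6 KO was also set directly against Cis WT, which does not use the Cis KO libraries as a group. The ISGs were near Cis WT in their middle and divided in their ends, and edgeR called 0 of 43, with 0.131% of genes called. The median log2 fold change was 0.07 over antiviral members and 0.06 over gamma-type members, and 17 of 43 members were below 0, against 50.3% of genes. The antiviral median was -0.38 without Cis Stat6 KO replicate 1 and 0.31 without replicate 2, and it was -0.15 without Cis WT replicate 2 and 0.31 without replicate 1. The gamma-type median was -0.08 without Cis WT replicate 2. Both Cis Stat6 KO libraries were below both Cis WT libraries for 7 members, against 23.5% of genes, and above for 8, against 23.3%. At an unadjusted p under 0.05, edgeR had Ifi44, Ifi44l and Irf1 lower, against 2.3% of genes, and 0 higher, against 3.06%. DESeq2 called Ifi44 lower, against 0.83% of genes, and 0 higher, against 1.33%, and voom with quality weights called 0, against 2.8%.

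Ifi44 and its neighbour Ifi44l, interferon-induced genes next to each other on chromosome 3, were almost undetected in Cis Stat6 KO. Ifi44 had 0 and 9 counts in Cis Stat6 KO libraries, 13 and 102 counts in Cis KO libraries and 251 and 139 counts in Cis WT libraries. In CPM these were 0 and 0.185 in Cis Stat6 KO, 0.203 and 2.33 in Cis KO and 4.33 and 2.03 in Cis WT. Cis KO replicate 1 was thus as low as a Cis Stat6 KO library. The log2 fold change of Cis Stat6 KO against Cis WT was -5.14 ± 1.82 (edgeR, adjusted p = 0.807). It was -4.10 without Cis Stat6 KO replicate 1, while without replicate 2 the remaining library had 0 counts. Ifi44l had 0 counts in both Cis Stat6 KO libraries, 0 and 48 counts in Cis KO libraries and 51 and 26 counts in Cis WT libraries. Against a floor of 3 counts over the Cis Stat6 KO group, which covers counting error only, Ifi44l was at least 23.9-fold lower than in Cis WT and at least 17.5-fold lower than in Cis KO. The bound against Cis KO rests on replicate 2 of Cis KO alone, since replicate 1 also had 0 counts, so those groups overlap and without replicate 2 no fold can be given. It was not past the threshold (edgeR, adjusted p = 0.923).

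Other members that ranked next in Cis Stat6 KO against Cis WT had smaller differences. Irf1 had a log2 fold change of -0.44 ± 0.18 (edgeR, adjusted p = 0.926). Xaf1, a pro-apoptotic interferon target, had 15.5 and 6.62 CPM in Cis Stat6 KO libraries, 17.5 and 10.8 CPM in Cis KO libraries and 26.1 and 20.3 CPM in Cis WT libraries, with both mutant groups below Cis WT. Its log2 fold change was -1.07 ± 0.45 in Cis Stat6 KO against Cis WT (edgeR, adjusted p = 0.943), and it was -1.82 without Cis Stat6 KO replicate 1 and -0.58 without replicate 2. Igtp had -0.43 ± 0.22, and Ifit1, higher in both Cis Stat6 KO libraries, had 1.09 ± 0.58.

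The medians of the antiviral and gamma-type members differed in how the Cis KO replicates compared with each other, but neither class was uniform. Replicate 1 of Cis KO was higher for 12 of 32 antiviral members, both MX genes and 4 of 5 sensors among them, against 9077 of 16765 tested genes. Replicate 2 was higher for 2 of 11 gamma-type members, against 7239 of 16765. Expressed as log2(CPM + 0.5) minus the Cis WT mean, the antiviral median was 0.33 and -0.26 in the Cis Stat6 KO libraries, -0.76 and -0.19 in the Cis KO libraries and 0.22 and -0.22 in the Cis WT libraries. The gamma-type median was 0.09 and 0.11 in the Cis Stat6 KO libraries, -0.45 and -0.93 in the Cis KO libraries and 0.15 and -0.15 in the Cis WT libraries. For antiviral members Cis KO replicate 2 was within the range of the other groups and replicate 1 below it, while for gamma-type members both were below and replicate 2 was the lower. Over all tested genes the median was -0.14 in Cis KO replicate 2 and within 0.01 of 0 elsewhere.

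**Figure D3:**
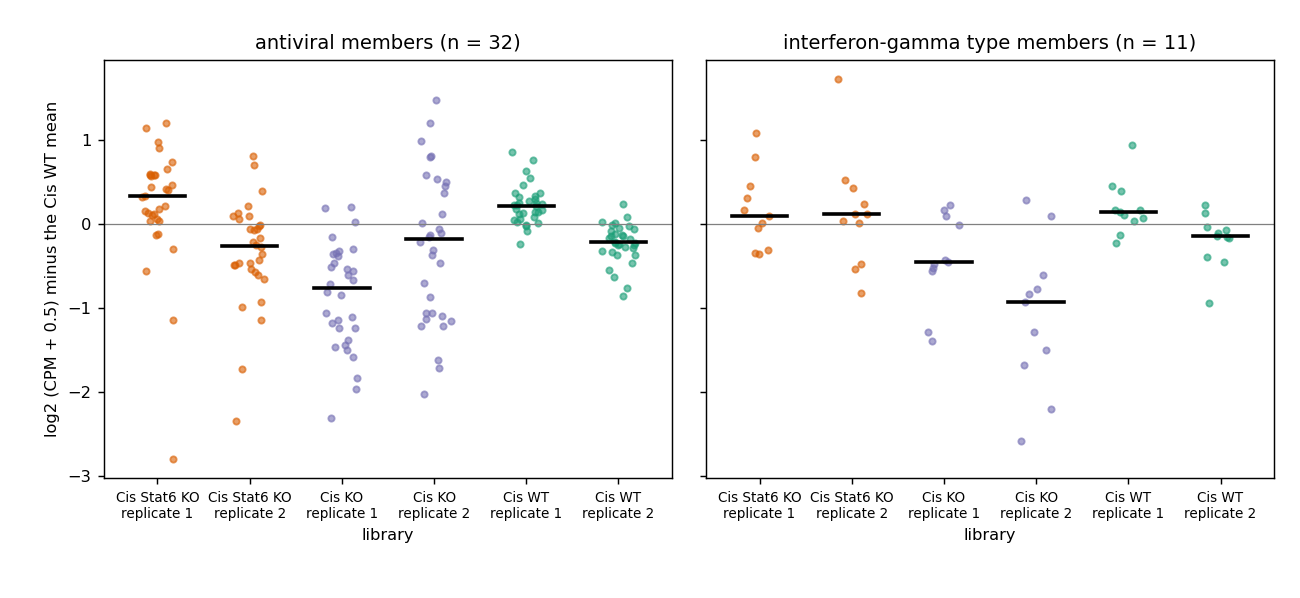
Level of each gene in each library as log2(CPM + 0.5) minus the mean of the Cis WT libraries, for antiviral members (left) and members of the interferon-gamma type (right). Points are genes and black bars are medians. The antiviral medians of the Cis KO libraries are -0.76 and -0.19, and the gamma-type medians -0.45 and -0.93.

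On the log2(CPM + 0.5) scale, Cis KO replicate 2 was over 2 times higher than replicate 1 for 15 of 32 antiviral members and 0 of 11 gamma-type members, against 9.64% of tested genes. Oasl2 was the furthest, with 1.23 and 12.7 CPM in the Cis KO libraries, followed by Rsad2 and Ifi44. On the same scale replicate 1 was over 2 times higher for 0 of 32 antiviral members and for 4 of 11 gamma-type members, Cxcl9, Gbp5, Iigp1 and Gbp7, against 11.6% of tested genes. The 0.5 added to CPM shrinks the ratios of scarce genes, so Mx1 and Oas2, with 2.05 and 0.799 CPM and 1.33 and 0.571 CPM in the Cis KO libraries, are not among those counted. Within Cis Stat6 KO, replicate 1 was over 2 times higher for 8 of 32 antiviral members, 3 of the 4 IFIT genes among them, against 2.1% of tested genes, and within Cis WT for 4 of 32, against 2.05%. Of the genes whose promoters are printed above, all with the ISRE core, Isg15 and Rsad2 differed by 1.55 and 2.56 between the Cis KO replicates. Ifit3, Gbp3, Irgm1 and Cxcl10 differed little, by -0.60, -0.39, -0.26 and -0.10 (replicate 2 minus replicate 1). The median absolute difference over all tested genes was 0.52. A link between the core and these differences was not tested.

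**Figure D4:**
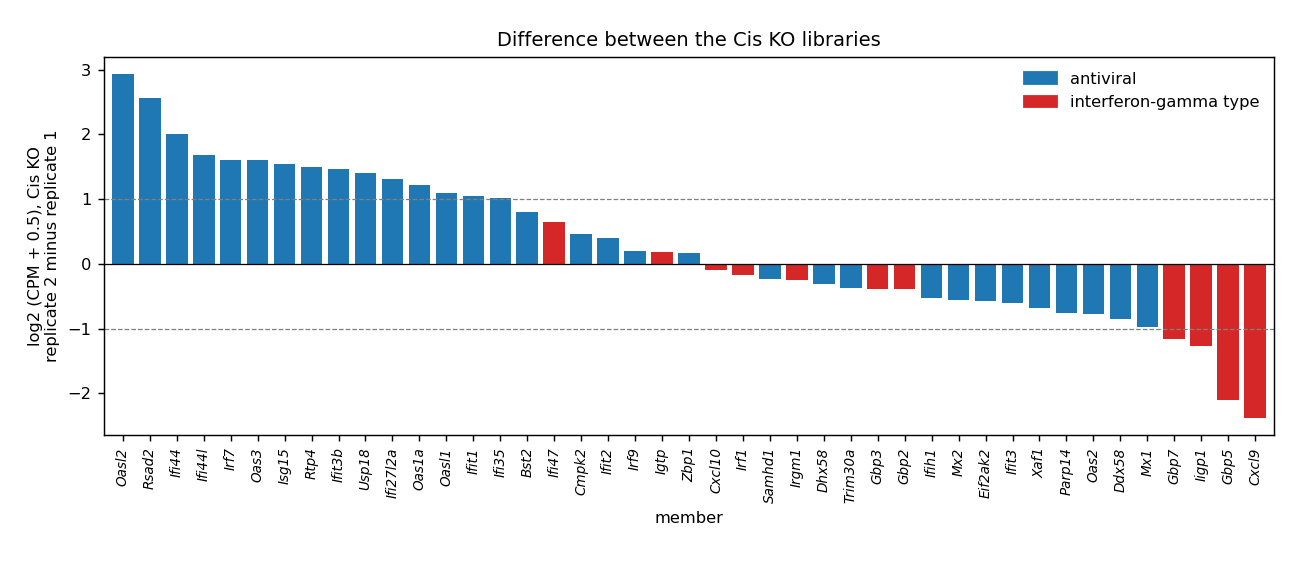
Difference between the Cis KO libraries for each gene, as log2(CPM + 0.5) in replicate 2 minus replicate 1, antiviral members in blue and gamma-type members in red. Dashed lines mark a 2-fold difference. Oasl2 (2.93) and Rsad2 (2.56) stand at the upper end, and Cxcl9 (-2.37) and Gbp5 (-2.10) at the lower end.

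Markers of some other cell types, but not all, were also higher in Cis KO replicate 2 than in replicate 1. B cell markers, 5 genes, summed to 0.188 and 1.25 CPM in the Cis Stat6 KO libraries, 50.5 CPM in Cis KO replicate 2, where none was at 0, 0.594 CPM in Cis KO replicate 1 and 0.431 and 0.234 CPM in the Cis WT libraries. Neutrophil markers, 6 genes, summed to 77.6 and 186 CPM in Cis Stat6 KO libraries, 14.8 and 383 CPM in Cis KO libraries and 22.4 and 21.7 CPM in Cis WT libraries. Monocyte markers, 5 genes, summed to 44.2 CPM in Cis KO replicate 2 and to 14.8 to 21.4 CPM elsewhere. Epithelial markers, 5 genes, summed to 26.6 and 12.6 CPM in Cis Stat6 KO libraries, 28.2 and 176 CPM in Cis KO libraries and 71.0 and 81.4 CPM in Cis WT libraries. The part of these cells in the ISG values was not tested. Markers of plasmacytoid dendritic cells, a source of type I interferon, summed to 36.3 to 48.5 CPM over 5 genes, but the defining marker Siglech was at 0 CPM in 4 of 6 libraries, both of Cis KO and replicate 2 of each other genotype, and at most 0.116 CPM in the rest. Markers of T and NK cells, 8 genes, summed to 3.84 to 15.4 CPM in all libraries. In bulk RNA, fewer cells that express a gene and less RNA per cell cannot be told apart.

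**Figure D5:**
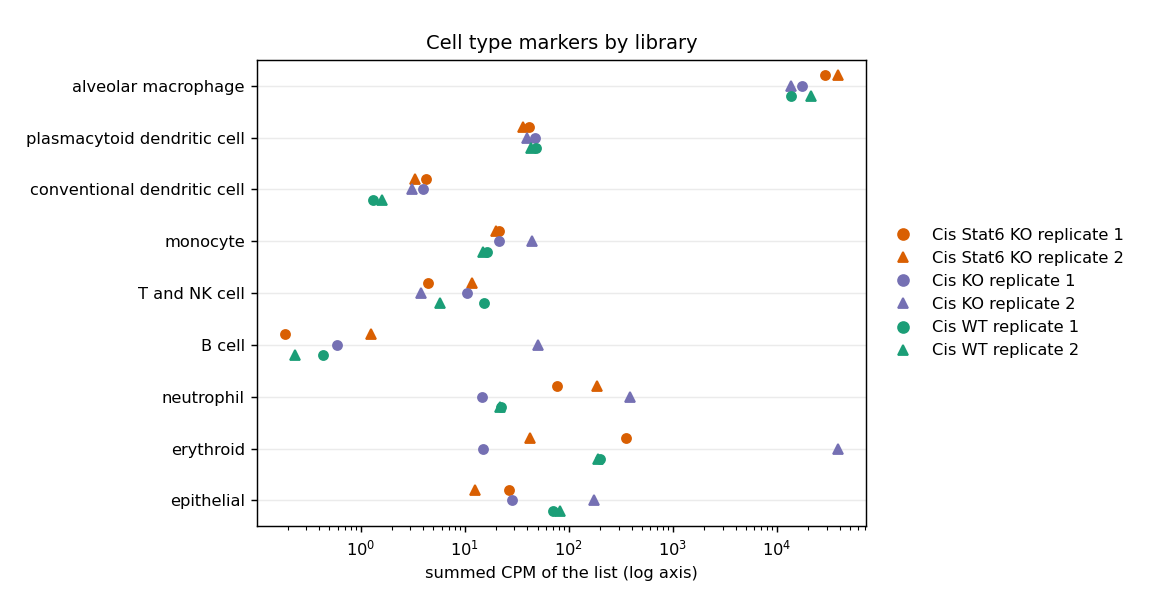
Summed CPM of each list of cell type markers in each library, on a log axis, with circles for replicate 1 and triangles for replicate 2. Cis KO replicate 2 lies at 50.5 CPM for B cell markers, 383 CPM for neutrophil markers and 38643 CPM for erythroid markers. The sums of alveolar macrophage markers are highest in the Cis Stat6 KO libraries, at 28943 and 38360 CPM, mostly from the single gene Chil3.

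The rest of the interferon pathway was counted in 4 lists, and edgeR called 0 of their genes in each of the 3 comparisons, as did voom with quality weights. DESeq2 called Ikbke and Traf3 lower in Cis KO against Cis WT, where it called 1.97% of all genes lower. In Cis Stat6 KO against Cis KO it called 2 receptor chains (Ifngr2 and Il10rb) and 3 of 14 induction genes higher. Irf8 and 2 of 14 induction genes were called lower. Of all genes, 6.15% were called higher and 6.16% lower in that comparison. Interferons with a row in the tables were scarce, but of the 20 listed only 11 had one. Ifnb1 and several Ifna genes had no row under their symbol, so their levels are unknown. Of these 11 interferon genes, 2 passed the filter, and 9 or 10 had 0 counts in each library. Ifng, the type II interferon made by T and NK cells, had 0.303 and 1.07 CPM in Cis Stat6 KO libraries, 0.156 and 0 CPM in Cis KO libraries and 0.242 and 0.175 CPM in Cis WT libraries.

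Of the receptor chains, 5 passed the filter, and at an unadjusted p under 0.05 edgeR had 0 of 5 different in Cis KO against Cis WT, where 5.51% of all genes were higher and 5.59% lower, and 3 higher in Cis Stat6 KO against Cis KO, against 9.29% of genes. Ifngr2, the signalling chain of the interferon gamma receptor, had 58.1 and 62.7 CPM in Cis Stat6 KO libraries, 29.9 and 35.0 CPM in Cis KO libraries and 32.3 and 45.1 CPM in Cis WT libraries. Both Cis Stat6 KO values were the highest, with a log2 fold change of 0.90 ± 0.23 against Cis KO (edgeR, adjusted p = 0.165). Among 13 signalling genes and inhibitors, edgeR had 1 lower and 0 higher in Cis KO against Cis WT at an unadjusted p under 0.05, against 5.59% and 5.51% of all genes, and 1 higher and 2 lower in Cis Stat6 KO against Cis KO, against 9.29% and 8.99%. Stat2, part of the ISRE complex, had 49.4 and 35.1 CPM in Cis Stat6 KO libraries, 29.4 and 17.4 CPM in Cis KO libraries and 42.8 and 37.4 CPM in Cis WT libraries. Its log2 fold change was -0.78 ± 0.31 in Cis KO against Cis WT (edgeR, adjusted p = 0.437). Irf8, a macrophage and dendritic cell factor, was lower, with a log2 fold change of -0.72 ± 0.20 in Cis Stat6 KO against Cis KO (edgeR, adjusted p = 0.186).

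In the list of genes that induce interferons, 14 of which were tested, edgeR had 1 higher and 4 lower in Cis KO against Cis WT at an unadjusted p under 0.05, against 5.51% and 5.59% of all genes, and 3 higher and 4 lower in Cis Stat6 KO against Cis KO, against 9.29% and 8.99%. Ikbke had the smallest p in both. It codes for the kinase IKK epsilon, which phosphorylates IRF3 and IRF7. Ikbke had 21.4 and 31.4 CPM in Cis Stat6 KO libraries, 8.75 and 7.99 CPM in Cis KO libraries and 39.7 and 30.0 CPM in Cis WT libraries. As with Gbp3, both Cis KO values lay well below the other 4, with a log2 fold change of -2.06 ± 0.28 against Cis WT (edgeR, adjusted p = 0.0624) and 1.66 ± 0.27 for Cis Stat6 KO against Cis KO (edgeR, adjusted p = 0.085). Traf3, an adaptor that links sensors to that kinase, had 27.2 and 27.8 CPM in Cis Stat6 KO libraries, 17.2 and 11.99 CPM in Cis KO libraries and 28.5 and 28.7 CPM in Cis WT libraries, again with the Cis KO libraries the 2 lowest. Its log2 fold change was -0.97 ± 0.24 in Cis KO against Cis WT (edgeR, adjusted p = 0.296).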

How the data were processed

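RNA of BALF cells was sequenced in 6 libraries, 2 per genotype. The authors deposited raw counts per gene and, per the file headers, FPKM values. Genome build mm10 is named in the submitters' processing notes, with strandedness, aligner and counting tool not given in the sources used here. Counts were fitted in edgeR 4.0.16 (R 4.3.3) with TMM scaling, filterByExpr and the quasi-likelihood F test, two-sided, on all 6 libraries and all 16765 genes, with Benjamini-Hochberg adjusted p under 0.05 as the threshold. Standard errors are the size of the log2 fold change over the square root of F. The common biological coefficient of variation was 50.3% on 3 residual degrees of freedom, so replicate spread and not depth limits precision. The fit was also run on simulated counts with known changes, drawn with the same spread in every group. In these data the Cis KO replicates differed more, with a median absolute log2 difference of 0.52, against 0.25 in Cis Stat6 KO and 0.18 in Cis WT. The simulation therefore cannot show how well the fit detects changes in Cis KO.

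The members, their classes and the pathway and marker lists were chosen with earlier results of these data known. The members given with a fold change and adjusted p are those past the threshold in a comparison, up to 10, filled to 6 by the smallest unadjusted p; from the pathway lists at most 2 genes each per comparison were taken in the same way, and some items are not reported here. Other members are given by their values per library or by counts. Promoters and their motifs are from RefSeq (GRCm38.p6), where 33 of 43 members matched by symbol. In GENCODE M21 all 43 members were found, 15 share an exon with another gene, 10 of them with one on the opposite strand, and 6 share over 10% of their 50-base words with other genes, so their counts are uncertain. Alternatives were DESeq2 1.42.0, RLE factors, no scaling, other filters, the replicate number as a block, limma 3.58.1 (voom with quality weights, and trend on log2(FPKM + 1) or log2(FPKM + 0.1)), and each library left out.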

Additional observations from a re-analysis of the deposited data

How the results depend on the processing

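The class medians kept their sign under every alternative run in Cis KO against Cis WT and in Cis Stat6 KO against Cis KO. Those of Cis Stat6 KO against Cis WT, close to 0, took either sign. Without Cis KO replicate 1, however, the antiviral medians of -0.23 and 0.16 were no further from 0 than those of all genes, -0.24 and 0.22. Of the named genes' values under the alternatives, 28 came past the threshold, 257 stayed on their side of it and 0 reversed. Against 0 members called by edgeR in each comparison, DESeq2 called 2 in Cis KO against Cis WT, 7 in Cis Stat6 KO against Cis KO and 1 in Cis Stat6 KO against Cis WT, and edgeR without a filter on low counts called 5, 8 (5 of them higher) and 1, where it called 3.9%, 7.02% and 1.47% of 26200 genes. Leaving out 1 library at a time gave 0 to 17, 0 to 18 and 0 to 0 members called, antiviral medians of -0.98 to -0.23, 0.16 to 0.92 and -0.38 to 0.31, and gamma-type medians of -1.03 to -0.48, 0.64 to 1.33 and -0.08 to 0.21, in the same order. The highest counts came without Cis KO replicate 1, where 5349 and 5999 of 18602 genes were called. The gamma-type median in Cis Stat6 KO against Cis KO was 0.68 on log2(FPKM + 1) and 0.67 on that scale with no filter, a scale that understates changes of low genes. Without scaling of library sizes the median of all genes in Cis KO against Cis WT shifted to -0.15, and the antiviral and gamma-type medians to -0.69 and -0.73. With the replicate block edgeR called 0 members in each comparison and 24, 28 and 12 genes in all, against 46, 60 and 22 without it. The labels state no pairing by replicate number. Over all tested genes the deviations of same-numbered libraries correlated at -0.07 to 0.01, which cannot settle whether samples were paired. Replicate 1 was higher for 35 of 43 members in Cis Stat6 KO, 21 in Cis KO and 37 in Cis WT, against 8524, 9077 and 8309 of 16765 tested genes. The block is given as an alternative only.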
